A study of Homo sapiens with 6 samples.

Results

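The 35 genes described here encode proteins of DNA replication and the cell cycle, were chosen as genes under E2F control, and were taken from the 20033 protein-coding genes of GENCODE release 44 by name. For each gene, the region of open chromatin that covered the transcription start site, the outermost start of the gene record, was looked up in every library. ATAC-seq measures open chromatin by the cuts that Tn5 transposase makes in accessible DNA, and MCF10A is a human mammary epithelial line that grows in culture without being tumorigenic. Wild-type MCF10A cells were held for 30 min in a phosphate-free buffered salt solution and then received 50 μM TPA, 30 μM ZnCl2 or no addition (control) for another 30 min. TPA, tris(2-pyridylmethyl)amine, is a chelator that lowers labile Zn2+, and ZnCl2 raises it, so the comparisons ask whether accessibility at these genes followed the Zn2+ supply. Each condition had 2 libraries, labelled replicates 1 and 2, which gives 6 libraries, and both treatments were compared with the same 2 control libraries. Every group was kept in the salt solution, so all values refer to cells outside their growth medium.

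Cells copy their DNA in steps that these genes serve in turn. The origin recognition complex, CDC6 and CDT1 load the MCM helicase on origins in G1, MCM10, CDC45 and the GINS complex turn it on, and polymerases with the clamp PCNA and its RFC loader copy the strands from nucleotides that RRM1, RRM2, TYMS and TK1 help to supply. Cyclin E or A with CDK2 drives entry into S phase, cyclin B with CDK1 drives mitosis, and the genes are regarded as targets of the E2F factors, which the RB protein holds back.

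RefSeq (GRCh38.p14) gave a promoter window from 250 bases upstream to 50 bases downstream of the RefSeq start for 30 of the 35 genes and for 15345 protein-coding genes. MCM4, MCM5, CCNE2, AURKA and CDK2 had no window and were not searched. The RefSeq start is not always the gene record start used for the percentiles, and in GINS1, GINS2, RRM2, PLK1, MCM7, RFC4 and CDC45 the window lies downstream of the latter. The letters of an E2F site, searched as TTTCCCGC, TTTCGCGC, TTTGCCGC or TTTGGCGC on both strands, stood in 17 of the 30 windows (56.7%), against 4.49% of all coding promoters. Words on opposite strands can overlap, as in MCM6, and CCAAT or GGGCGG boxes were not kept apart from them. Of the 24 matches, 19 began within 100 bases of the RefSeq start, and in 14 of the 17 genes all matches lay inside an open region in all 6 libraries. The latter share was not computed over all coding promoters. The gene record start was covered in all 6 libraries in 13 of the 17 genes with E2F letters and in 11 of the 13 without. Over all coding genes the shares were 55.6% with the letters and 40.9% without. The genes were chosen for E2F control, so a high share of E2F letters follows from the choice and is no finding, and a match is not shown to be a bound site. The windows of 30 bases below show 1 match for each of 9 genes to which the results return, with the E2F letters in capitals and the strand that carries them.
CDC6, chr17:40287875-40287904, plus strand: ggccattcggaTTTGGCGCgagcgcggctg
MCM6, chr2:135876515-135876544, minus strand: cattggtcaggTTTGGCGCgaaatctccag
CDT1, chr16:88803743-88803772, minus strand: ttcccgccaaaTTTCCCGCgggcgccctgg
GINS2, chr16:85688967-85688996, plus strand: gcggccgccgtTTTCCCGCcacggcgagag
PCNA, chr20:5126663-5126692, plus strand: aacgcacgcctTTTCCCGCccctgacgctg
RFC3, chr13:33818083-33818112, minus strand: cagagacaagtTTTCCCGCgagctccaaat
TYMS, chr18:657603-657632, minus strand: tccgcgcgcctTTTCCCGCggccgtcccgc
CDC25A, chr3:48188443-48188472, minus strand: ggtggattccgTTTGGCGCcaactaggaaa
E2F1, chr20:33686387-33686416, minus strand: ggcaaaaaggaTTTGGCGCgtaaaagtggc

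Genes of mitosis are known instead for the cell cycle genes homology region (CHR), searched as TTTGAA or TTCGAA on both strands, which often stands near a CCAAT box bound by NF-Y. CHR letters were in 4 of 30 windows (13.3%) and in 13.5% of all coding promoters, so their share was near the background. The 4 genes were CDK1 and PLK1, of mitosis, and MCM6 and RRM1, which are not mitotic genes. CCNB1 had no match, and AURKA had no window to search. The matches of CDK1 and PLK1 are shown with the CHR letters in capitals, and both lay inside an open region in all 6 libraries.
CDK1, chr10:60778158-60778187, plus strand: gagtataataaaTTTGAActgtgccaatgc
PLK1, chr16:23678848-23678877, plus strand: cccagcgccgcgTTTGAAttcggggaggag
CCAAT was in 20 of 30 windows (66.7%, against 36.6%) and GGGCGG, the core of an SP site, in 24 of 30 (80%, against 59.2%). The GC content of the windows had a median of 64.3% (range 47.7% to 81%), close to the 63% of all coding promoters. CpG dinucleotides per window had a median of 30 (range 15 to 47), against 22 in all coding promoters (quartiles 9 and 32). CCNE1 had the highest GC content, with 7 GGGCGG boxes and no E2F letters as searched.

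Open regions stood at nearly all of these start sites in every condition. Of the 35 start sites, 30 and 34 were covered in control replicates 1 and 2, 33 and 34 in TPA libraries, and 32 and 31 in ZnCl2 libraries. Among all protein-coding genes the covered shares were 46.5% and 57.5% in control libraries, 50.4% and 52.6% under TPA, and 55.7% and 43.6% under ZnCl2. All 6 libraries covered 29 of the 35 start sites, against 39.3% of coding genes, and no start site of the list was without a region in every library, against 39.8% of coding genes. The lists held 25031 and 44641 regions in the control, 35902 and 41376 under TPA, and 38069 and 18887 under ZnCl2, and the sequencing depth is unknown because they carry no read counts.

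The caller gave each region a whole-number score of at least 30, on a scale that differs between libraries. A score is therefore reported as a percentile, the share of regions of the same list with a lower score. The median percentile of the covered start sites was 79.8 and 87.6 in control libraries, 84.7 and 83.3 under TPA, and 87.6 and 75.1 under ZnCl2. All covered coding genes had medians of 69.2 and 80.6, 71.3 and 75.6, and 77.4 and 66.6 in the same order. The replication and cell cycle genes thus stood above the coding median in all 6 libraries, by 7.04 to 13.4 percentile points. As group means the medians were 83.7 ± 5.52 in control libraries, 84.0 ± 1.00 under TPA and 81.3 ± 8.84 under ZnCl2 (SD, n = 2), so the conditions differed by less than the SD of the control or the ZnCl2 libraries. The lowest median came from the shortest list, ZnCl2 replicate 2, and the part of list length in the differences between libraries was not tested in these values.

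**Figure D1:**
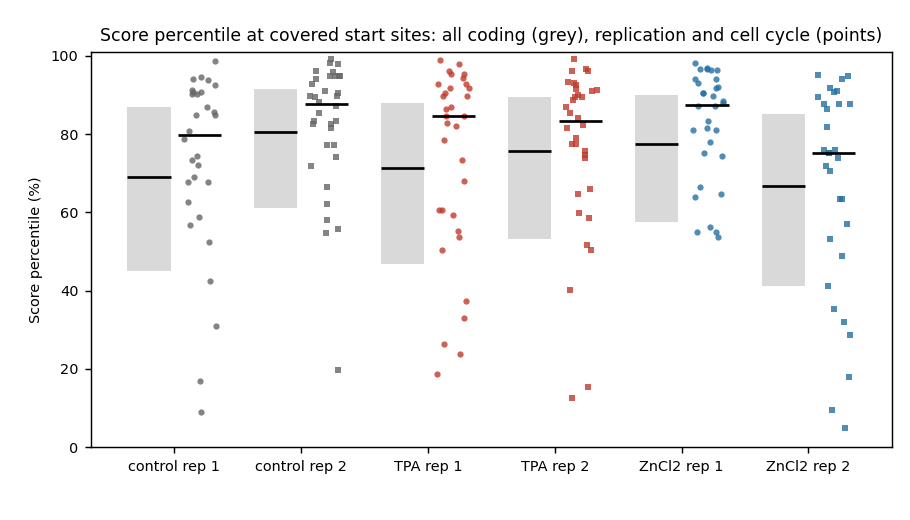
Score percentile (y axis, %) of the open region at each covered start site in the 6 libraries. Grey bars span the quartiles of all covered protein-coding genes and coloured points are the replication and cell cycle genes, with black lines at both medians; the medians of the genes lie 7.04 to 13.4 points above those of all coding genes.

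Licensing genes ranged widely. MCM3, a subunit of the replicative helicase, was the highest of the 9, at 85.6 and 98.2 in control libraries, 94.3 and 90.0 under TPA, and 96.3 and 94.8 under ZnCl2. The control libraries spanned both treatments. CDT1, which brings the helicase to origins, was the lowest, with percentiles of 81.7 in control replicate 2, 26.3 and 15.5 under TPA and 41.2 in ZnCl2 replicate 2, and no region in control replicate 1 or ZnCl2 replicate 1. The region of CDT1 was 12500 bp wide in control replicate 2 and 10860 bp in ZnCl2 replicate 2, where it also held the start of the neighbour APRT, so the score there was not that of CDT1 alone. Under TPA it was 3070 and 2640 bp wide and did not hold that start. The helicase subunit MCM6, whose window holds 4 matches to the E2F letters, stood at 42.6 and 77.2 in control libraries, 59.4 and 65.9 under TPA, and 64.8 and 48.9 under ZnCl2. Of the other helicase subunits, MCM2 ranged from 55.2 to 83.3, MCM4 from 76.1 to 94.8 and MCM5 from 28.7 to 78.0. Of the 9 licensing genes, 8 were covered in all 6 libraries and 4 of these had a mean percentile above 75, a level that 54.1% of such coding genes exceeded.

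At covered gene record starts, genes of helicase activation were mostly high. GINS1, a subunit of the GINS complex, had 93.8 and 97.8 in control libraries, 92.8 and 91.4 under TPA, and 97.0 and 91.8 under ZnCl2. The region there also held the start of ABHD12 in every library, and at the canonical start of GINS1 the mean was 73.9. CDC45, which joins MCM and GINS in the active helicase, was the lowest of the 4 at the gene record start, at 78.9 and 82.6 in control libraries, 82.1 and 85.4 under TPA, and 81.2 and 53.2 under ZnCl2. CDC45 stood low in ZnCl2 replicate 2 and close together in the other libraries. MCM10, which helps to start the helicase, ranged from 87.7 to 96.7, and GINS2 is described with the calls.

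Among the 7 genes of fork synthesis, the sliding clamp PCNA was near the top of every list. Its percentiles were 94.7 and 94.9 in control libraries, 98 and 96.2 under TPA, and 98.1 and 95.2 under ZnCl2. RFC3, a subunit of the clamp loader, was at the other end of the scale, at 19.7 in control replicate 2 and 33.1 and 12.6 under TPA, with no region in the other 3 libraries. RFC4, another subunit, had 58.0 in control replicate 2, 37.4 and 58.6 under TPA, and 55.0 in ZnCl2 replicate 1, with no region in control replicate 1 and ZnCl2 replicate 2. Clamp and loader genes thus spanned nearly the whole range of scores within the same libraries. Of the polymerase genes, POLA1, of the primase complex, ranged from 17.9 to 66.6 and POLE, of the leading strand, from 63.6 to 89.5. The E2F letters of RFC3 lay inside an open region in 3 of the 6 libraries.

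Of the 4 genes of nucleotide supply, all were covered in every library. Thymidine kinase TK1 was the highest, at 91.3 and 96.1 in control libraries, 95.3 and 82.3 under TPA, and 96.5 and 89.5 under ZnCl2. Thymidylate synthase TYMS was the lowest by its mean, at 56.8 and 74.1, 60.7 and 59.9, and 75.1 and 57.0 in the same order. In neither gene did treated and control libraries separate.

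The G1/S control genes ran from 4.90 to 96.2 over single libraries. CCNE2, which encodes a cyclin E, stood at 90.4 and 94.2 in control libraries, 96.2 and 96.2 under TPA, and 94.2 and 87.7 under ZnCl2. E2F2, an activating E2F factor, was the lowest, at 9.08 and 54.6 in control libraries, 18.6 and 40.1 under TPA, and 53.8 and 32.0 under ZnCl2. E2F1 was high where it was covered, at 87.0 and 94.8 in control libraries, 91.8 and 81.7 under TPA and 87.3 in ZnCl2 replicate 1, and had no region in ZnCl2 replicate 2. The phosphatase gene CDC25A, whose product activates cyclin-CDK complexes, varied least, between 89.6 and 92.6 over the 6 libraries (SD 1.02), while CDK2 ran from 4.90 to 64.8 (SD 23.1). CCNA2, which encodes cyclin A2, lay between 58.9 and 87.3, and CCNE1 is described with TPA.

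Mitotic kinases gave the highest percentile of the list. AURKA, the kinase of spindle poles, had 98.6 and 99.3 in control libraries, 98.9 and 99.3 under TPA, and 96.4 and 94.2 under ZnCl2. Its region also held the start of CSTF1 in every library. CDK1 ranged from 75.1 to 93.1 and CCNB1, which encodes cyclin B1, from 73.3 to 90.6. PLK1, a kinase of mitotic entry, was covered at its gene record start only in control replicate 2, as described with the calls. Over all roles, 18 of the 29 genes covered throughout had a mean percentile above 75, beside the 54.1% of coding genes.

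**Figure D2:**
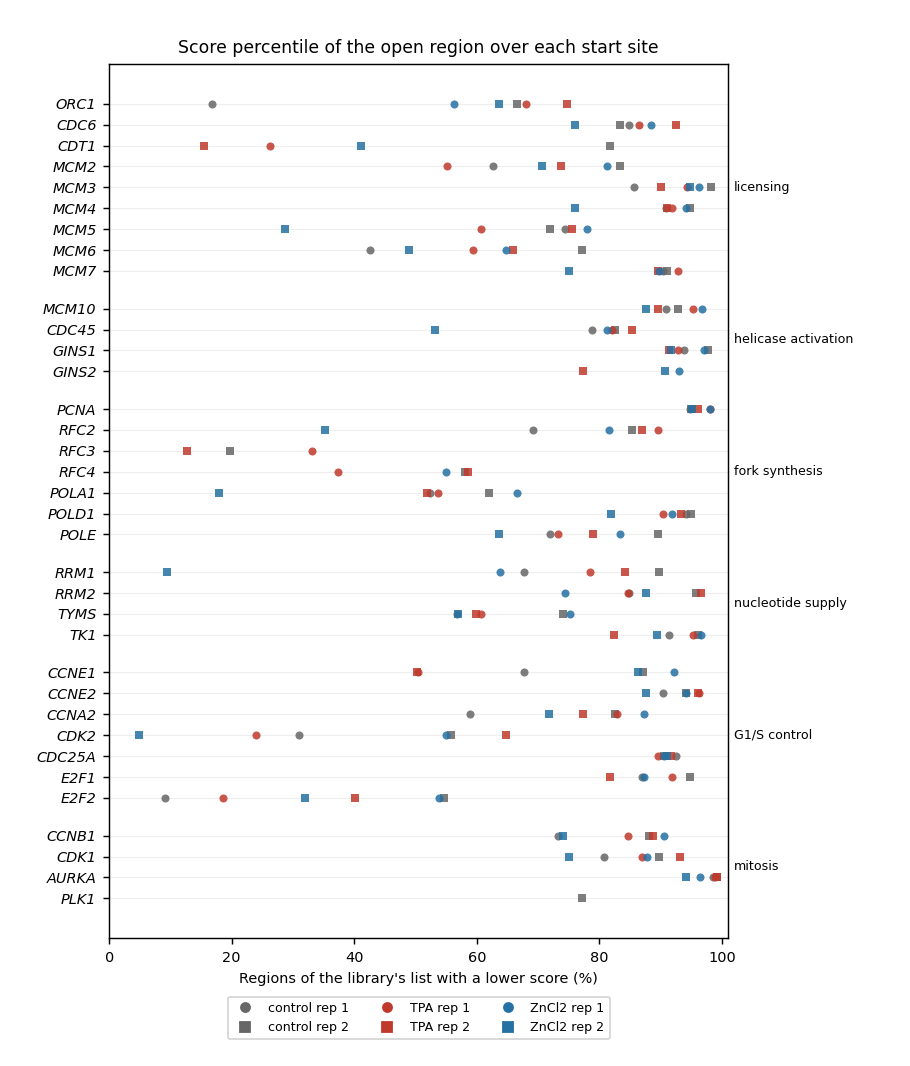
Score percentile (x axis, %) of the open region over the start site of each of the 35 genes, grouped by role; each point is 1 library, coloured by condition and shaped by replicate, and a missing point means no region over the start. CDC25A and PCNA stay within a few points, whereas ORC1, RRM1 and CDK2 are spread across the axis by their replicates.

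The replicates of a condition often lay far apart, and in the control and with ZnCl2 the differences had a direction. Control replicate 2 exceeded replicate 1 in 27 of 30 genes, and ZnCl2 replicate 1 exceeded replicate 2 in 27 of 30. With TPA, replicate 1 was higher in 16 genes and replicate 2 in 17. The direction was not counted over all coding genes, but their medians moved the same way in the control and with ZnCl2. In replicates 1 and 2 these medians were 69.2 and 80.6 in the control, 71.3 and 75.6 under TPA, and 77.4 and 66.6 under ZnCl2. The direction is thus not particular to the list. The median gap between replicates was 9.33 points in the control, 5.68 under TPA and 13 under ZnCl2, against 12.7, 6.12 and 14.8 over all coding genes. The largest gaps were in ORC1 in control libraries (49.7 points), CDK2 under TPA (40.9) and RRM1 under ZnCl2 (54.4). Control replicate 2 and ZnCl2 replicate 1 had the longer list of their condition, as did TPA replicate 2, where the gaps had no such direction.

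With TPA, no gene of the list changed in score percentile by limma at an adjusted p under 0.05, over the 29 genes covered in all 6 libraries and 7880 coding genes tested. None of the 7880 passed in either direction (0.0%), and at an unadjusted p under 0.05 limma placed 16 coding genes higher (0.203%) and 456 lower (5.79%). The median difference was 0.30 points over the 29 genes and -0.32 over all genes tested. By role, the medians were 0.37 in licensing, 0.61 in helicase activation, -2.68 in fork synthesis, -2.31 in nucleotide supply, 0.03 in G1/S control and 4.69 in mitosis. Both TPA libraries stood above both control libraries in 5 of 29 genes (all coding genes, 10.5%) and below them in 3 of 29 (23.4%). With only the 18887 highest-scoring regions of each list, the median difference turned to -3.09 over 24 genes of the list and -2.97 over all genes. In that setting 17 coding genes passed as higher and 236 as lower, none of them in the list.

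CCNE1, the gene of cyclin E1, had the lowest unadjusted p of the list with TPA. Its percentile was 67.7 and 87.2 in control libraries, 50.4 and 50.3 under TPA, and 92.1 and 86.3 under ZnCl2. Neither TPA library reached the lower of the controls, and the ZnCl2 libraries were within or above the control. The scores themselves were 54 and 107, 51 and 52, and 123 and 76, so that control replicate 1 was close to the TPA libraries on that scale, which is not shared between lists. In regions ranked higher, there were 7718 and 5588 in control libraries, 17242 and 19945 under TPA, and 2913 and 2498 under ZnCl2. The difference with TPA was -27.1 points (SE 7.64, 95% interval -47.8 to -6.43, limma adjusted p = 0.658). Across 14 settings it ran from -54.2 to -17.4, with limma adjusted p from 0.164 to 1.0, so the difference did not pass in any of them; with an equal number of regions TPA replicate 2 had no region there and no value was had. With ZnCl2 the difference was 11.8 points (SE 7.64, interval -8.89 to 32.5, limma adjusted p = 1.0). The start of CCNE1 lies on chromosome 19 at 29811991 (hg38, plus strand), and its region spanned 29811131 to 29812950 in TPA replicate 2 and 29809961 to 29813670 in ZnCl2 replicate 1.

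Of the 5 genes above both controls in both TPA libraries, ORC1, RFC2, CDC6 and CCNE2 had the largest differences. ORC1, the largest subunit of the origin recognition complex, had 16.8 and 66.5 in control libraries, 68.1 and 74.7 under TPA, and 56.4 and 63.6 under ZnCl2. Its difference with TPA was 29.7 points, but the control replicates were 49.7 apart (interval -17.9 to 77.4, limma adjusted p = 1.0). RFC2, of the clamp loader, had 69.2 and 85.4, 89.6 and 86.9, and 81.7 and 35.2 in the same order, and CDC6, a licensing factor, had 84.9 and 83.3, 86.5 and 92.5, and 88.5 and 76.1. The differences with TPA were 11 points in RFC2, 5.40 in CDC6 and 3.92 in CCNE2, and each interval included 0. Besides CCNE1, the values of GINS1 and of POLD1, the catalytic subunit of polymerase delta, were below both controls, by -3.73 and -2.68 points. For GINS1 this was so at the gene record start alone, and at its canonical start the libraries overlapped, with a difference of 1.02 points. POLD1 had 94.2 and 94.9 in control libraries, 90.4 and 93.3 under TPA, and 91.9 and 81.9 under ZnCl2.

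**Figure D3:**
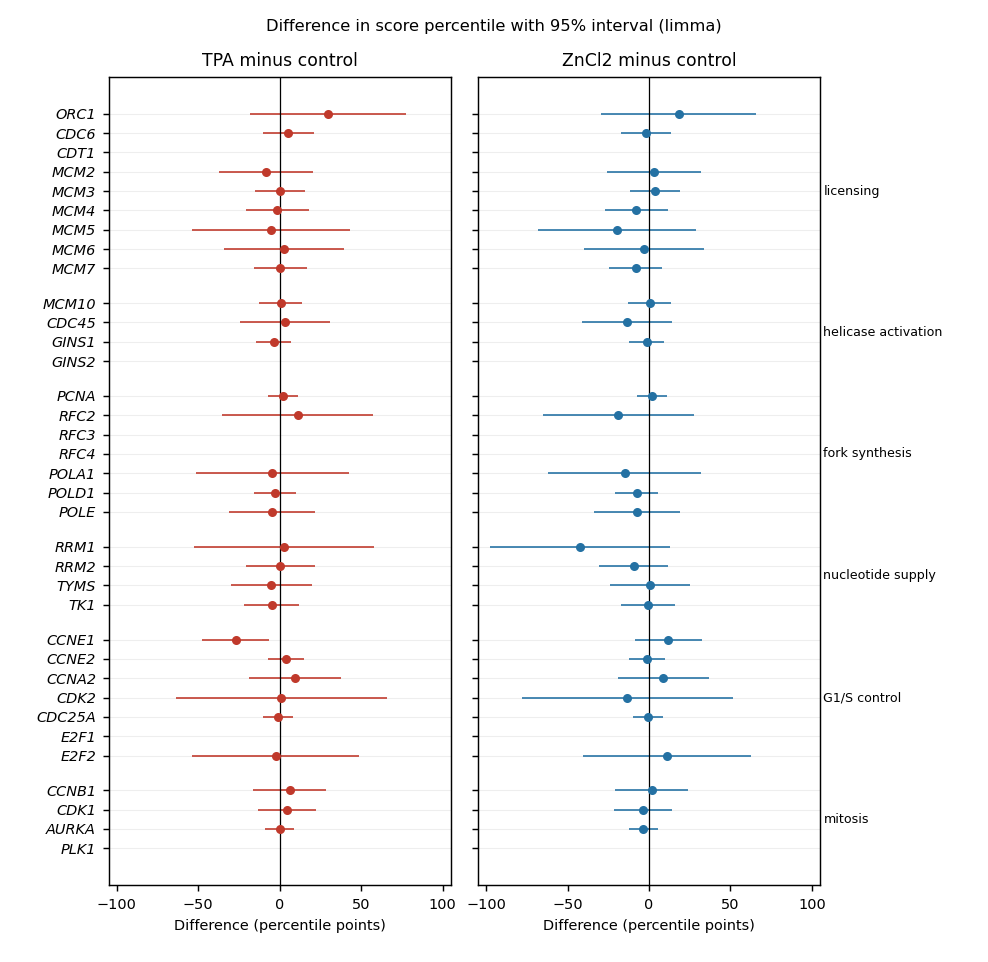
Difference in score percentile from the control (x axis, percentile points) under TPA and with ZnCl2 for the 29 genes covered in all 6 libraries; points are differences of means of 2 libraries and lines the 95% intervals of limma, and genes without a point were not tested. The interval of CCNE1 under TPA (-47.8 to -6.43) is the only 1 that leaves out 0, before adjustment.

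ZnCl2 likewise gave no called change in score percentile. None of the 29 genes and none of the 7880 coding genes passed by limma in either direction (0.0%), and the unadjusted p was under 0.05 in 8 coding genes higher (0.102%) and 88 lower (1.12%). The median difference was -1.83 points over the 29 genes and -2.83 over all genes tested. By role it was -2.41 in licensing, -1.43 in helicase activation, -7.68 in fork synthesis, -5.01 in nucleotide supply, 4.04 in G1/S control and -3.64 in mitosis. Both ZnCl2 libraries were above both control libraries in 1 of 29 genes (all coding genes, 2.73%), which was PCNA, and below them in 4 of 29 (13.7%). Without ZnCl2 replicate 2, which had the shortest list, the median turned to 3.80 over the list and 3.02 over all genes.

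The 4 genes below both controls with ZnCl2 were RRM1, MCM7, POLD1 and AURKA. RRM1, the large subunit of ribonucleotide reductase, had 67.7 and 89.8 in control libraries, 78.4 and 84.3 under TPA, and 63.9 and 9.41 under ZnCl2. The difference of -42.1 points came mostly from ZnCl2 replicate 2 and did not pass (interval -97.4 to 13.2, limma adjusted p = 1.0). MCM7 had 90.4 and 91.0 in control libraries, 92.8 and 89.6 under TPA, and 89.8 and 75.1 under ZnCl2. In MCM7, POLD1 and AURKA the differences were -8.27, -7.68 and -3.64 points, and the intervals included 0. For PCNA the difference was 1.79 points with ZnCl2 and 2.26 under TPA, and both intervals included 0. At the canonical start of PCNA both directions turned, to -2.33 points with ZnCl2 and -1.94 with TPA. With 2 libraries against 2 the smallest p of an exact permutation test on a single gene is 0.33, so that test could not reach 0.05.

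Start sites gained or lost as a whole were rare. No gene of the list was open in both TPA and neither control library (0.25% of all coding genes) or in both control and neither TPA library (0.609%). GINS2, a GINS subunit, was open in both ZnCl2 and neither control library (0.11%), and no gene was open in both control and neither ZnCl2 library (0.125%).

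The case of GINS2 turned on where its start was placed. The gene record begins at 85690073 on chromosome 16 (hg38, minus strand), and there the percentiles were 77.4 in TPA replicate 2 and 93.1 and 90.8 under ZnCl2. At the start of the Ensembl canonical transcript, 1119 bp downstream at 85688954, a region was open in all 6 libraries, at 91.8 and 86.4 in control libraries, 91.8 and 77.4 under TPA, and 93.1 and 90.8 under ZnCl2. The region there was 1100 and 2060 bp wide in the control, 960 and 5940 bp under TPA, and 3100 and 2430 bp under ZnCl2. The wider regions reached the upstream start and the narrower ones did not, and the E2F letters shown above were inside the region in every library. At the canonical start, GINS2 differed by 2.81 points with ZnCl2 (limma adjusted p = 1.0). This alternative was added after seeing the data.

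PLK1 showed the same dependence on the start. Its gene record starts at 23677656 on chromosome 16 (plus strand), where only control replicate 2 had a region, at 77.2. At the canonical start 1233 bp downstream all 6 libraries were open, at 67.7 and 77.2 in control libraries, 84.7 and 88.4 under TPA, and 82.6 and 60.5 under ZnCl2. Both TPA libraries were above both controls there, by 14.1 points (limma adjusted p = 1.0). The CHR letters of PLK1 were inside the region in every library. At canonical starts, 31 of the 35 genes were covered in all 6 libraries, against 43.0% of coding genes, and the remaining exceptions were CDT1, RFC3, RFC4 and E2F1. Their RefSeq promoter windows also lay outside the open regions of the same libraries, and 26 of 30 windows were wholly open in all 6. The share of wholly open windows over all coding promoters was not computed.

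The width of the regions, like their score, differed between replicates as well as between conditions. Median widths at the covered starts were 1850 and 2675 bp in control libraries, 1640 and 2000 bp under TPA, and 2180 and 2910 bp under ZnCl2. Those of all coding genes were 1690 and 2760 bp, 1840 and 1900 bp, and 2150 and 2600 bp. Group means of the list were 2263 ± 583 bp in control libraries, 1820 ± 255 bp under TPA and 2545 ± 516 bp under ZnCl2 (SD, n = 2). By limma on log2 width, none of the 29 genes passed with either treatment. With TPA, 10 coding genes were wider (0.127%) and 0 narrower at the adjusted threshold, and at an unadjusted p under 0.05 there were 48 wider (0.609%) and 71 narrower (0.901%). The count of 10 was not stable when single libraries were left out, as described with the dependence on the processing. With ZnCl2 there were 0 in both directions, and at an unadjusted p under 0.05 there were 36 wider (0.457%) and 10 narrower (0.127%). The median log2 difference was -0.21 under TPA and 0.19 under ZnCl2 over the list, and -0.20 and 0.11 over all genes tested. Leaving out single libraries turned both directions, with medians over the list of -0.49 to 0.09 under TPA and -0.05 to 0.49 under ZnCl2.

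Narrower regions in both TPA than in both control libraries were seen in 5 of 29 genes (all coding genes, 16.5%) and wider ones in 0 (1.83%). With ZnCl2, 4 of 29 were wider (10.6%) and 1 narrower (2.65%). MCM7 was the narrower gene with ZnCl2 and was narrower with TPA too, at 2960 and 4300 bp in control libraries, 2070 and 2410 bp under TPA, and 2500 and 2760 bp under ZnCl2. Its log2 difference was -0.68 under TPA and -0.44 under ZnCl2 (limma adjusted p = 0.996 and 1.0). E2F2 had the most negative log2 difference with TPA, -0.85 (limma adjusted p = 0.996), at 2100 and 4850 bp in control libraries and 1550 and 2030 bp under TPA.

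**Figure D4:**
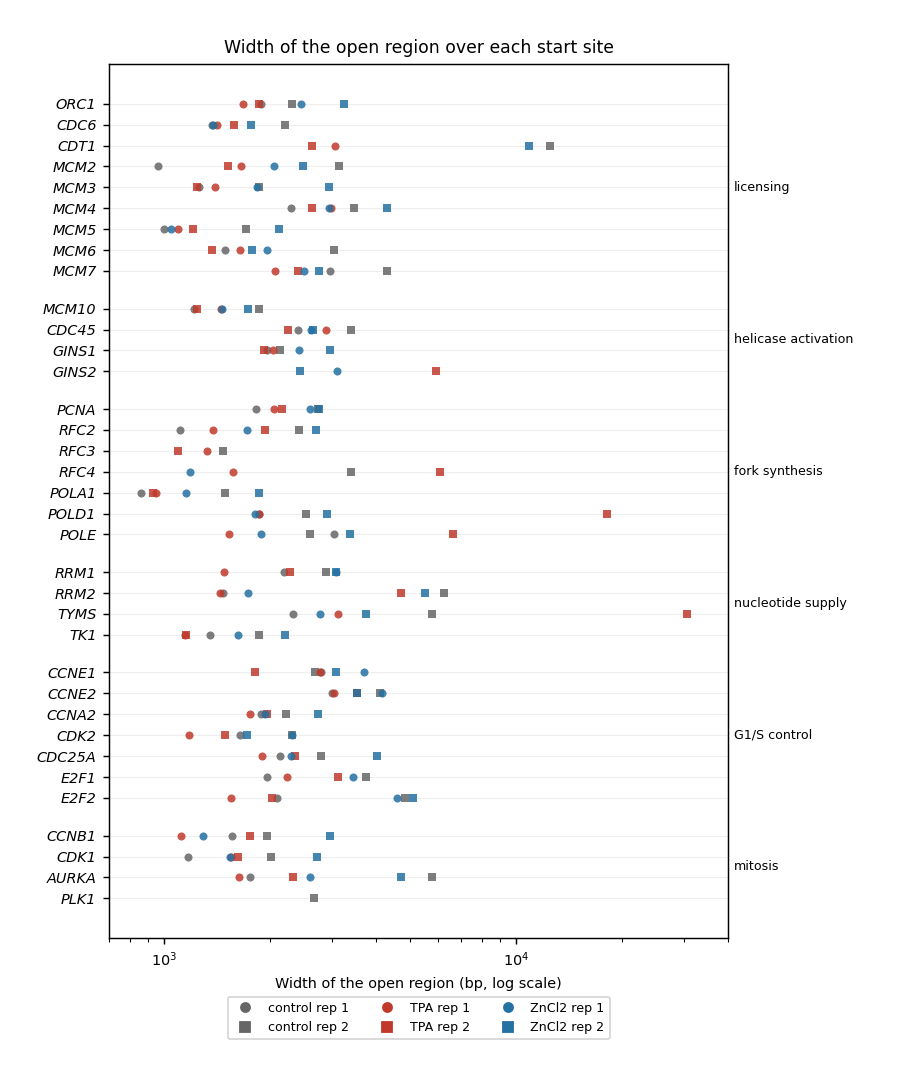
Width of the open region over each start site (x axis, bp, log scale) for the 35 genes by role; each point is 1 library, coloured by condition and shaped by replicate. Most points lie between 1000 and 4000 bp, and the far right points of TYMS and POLD1 are both TPA replicate 2.

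A few regions were far wider, and each in 1 or a few libraries. TYMS had widths of 2330 and 5760 bp in control libraries, 3130 and 30510 bp under TPA, and 2780 and 3750 bp under ZnCl2. The region of TPA replicate 2 reached 28832 bp upstream of the start, from 628821 to 659330 on chromosome 18, into the neighbouring gene CLUL1. In the same span each of the other libraries had a single region with 2330 to 3650 open bases. POLD1 had 1870 and 2530 bp in control libraries, 1860 and 18150 bp under TPA, and 1810 and 2910 bp under ZnCl2. That of TPA replicate 2 also ran through part of NR1H2, where the other 5 libraries each had 2 regions with 2680 to 5310 open bases in the span. POLE (6640 bp), RFC4 (6070 bp) and GINS2 (5940 bp) were widest in TPA replicate 2 as well. TPA replicate 1 had none of these wide regions, and without it limma called TYMS and POLD1 wider, on the single remaining TPA library.

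Regions over 4000 bp in width were found over 0 and 7 of the covered starts in the control, 0 and 6 under TPA, and 2 and 6 under ZnCl2. All coding genes had shares of 2.76% and 20.2%, 5.47% and 10.2%, and 7.77% and 15.1%. In every condition replicate 2 had more of them, in the list as in all genes. RRM2, the small subunit of ribonucleotide reductase, followed the replicate number closely, with 1470, 1440 and 1730 bp in the replicate 1 libraries and 6250, 4710 and 5530 bp in replicate 2 of the control, TPA and ZnCl2. In the span of 6250 bp, each replicate 1 library had 2 separate regions where each replicate 2 library had 1.

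Around the start, openness was centred and extended farther into the gene than upstream. At 1000 bp upstream, 11.4% and 45.7% of the genes were open in the control, 14.3% and 25.7% under TPA, and 25.7% and 45.7% under ZnCl2. At 1000 bp downstream the shares were 45.7% and 82.9%, 54.3% and 54.3%, and 65.7% and 77.1%. The same lean toward the gene was present in all coding genes, with 11.2% to 31.6% open upstream and 24.1% to 48.4% downstream.

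**Figure D5:**
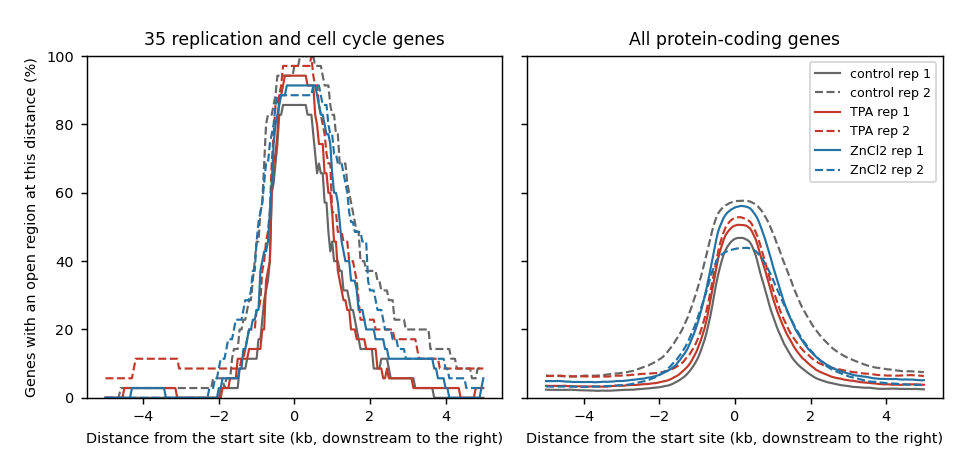
Share of genes with an open region (y axis, %) by distance from the start site (x axis, kb, downstream to the right) for the 35 genes and for all protein-coding genes, with 1 line per library (solid for replicate 1, dashed for replicate 2). At 1 kb the list has 45.7% to 82.9% downstream and 11.4% to 45.7% upstream.

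Several starts share their region with another gene, so that a score belongs to both promoters. A protein-coding gene starting on the opposite strand within 1000 bp upstream was found for 9 of the 35 genes (25.7%), against 8.54% of coding genes. ORC1 faces PRPF38A at 179 bp, MCM2 faces TPRA1 at 143 bp, GINS1 faces ABHD12 at 173 bp and TK1 faces AFMID at 125 bp. CDC45 faces UFD1 at 255 bp, PCNA faces CDS2 at 253 bp and POLE faces PXMP2 at 211 bp. The start of another coding gene was inside the open region of 11 or 12 genes of the list in each library, among them MCM4 with PRKDC and CCNE2 with NDUFAF6. How often this held over all covered coding genes was not counted. For GINS1 and PCNA the canonical start lies 16665 and 6668 bp from the gene record start, in another region. There PCNA stood at 96.6 and 96.6 in control libraries, 94.9 and 94.4 under TPA, and 96.0 and 92.4 under ZnCl2, so that both treatments lay below the control. GINS1 was at 66.1 and 90.3 in control libraries, 82.9 and 75.6 under TPA, and 82.1 and 46.6 under ZnCl2, and its mean of 73.9 was below that of CDC45, 77.2.

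Other genes of the pathway showed no called change either. Among 40 further replication genes, such as those of other ORC, GINS, RFC and polymerase subunits, 28 were covered in all 6 libraries. Of 20 further mitotic genes 11 were covered throughout, and of 20 genes of the RB, E2F and cyclin D circuit 9 were. The share over all coding genes was 39.3%. Of these 28, 11 and 9 genes, 0 passed limma's adjusted threshold for the percentile in either direction with either treatment. The median differences with TPA were 0.62, 1.32 and 0.84 points, beside -0.32 over all genes tested. With ZnCl2 they were -8.38, -6.40 and -2.17 points, beside -2.83.

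The labelled cell type was checked against epithelial genes at the same resolution. The integrins ITGA6 and ITGB4 were covered in all 6 libraries, KRT5 and LAMA3 in 5, KRT14 in 4, CDH1 in 3 and EPCAM in 1 (4 at its canonical start), while TP63 had no region at either start. Among markers of other cell types, PTPRC, CD3E, PECAM1, VWF, CDH5, PDGFRB, DES and MYH11 had no region in any library. CD14 was covered in 5 libraries (6 at its canonical start), SYP in 4 and COL1A1 in 1. Over all coding genes 39.3% were covered in all 6 libraries and 39.8% in none, so covered starts alone do not identify the cell type. Starts other than the gene record and canonical ones, as in TP63, were not looked up. An open start says only that DNA was accessible, not that the gene was expressed.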

How the data were processed

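ATAC-seq libraries came from 6 samples of MCF10A cells, 2 per condition. The authors checked reads with FastQC 0.11.8, trimmed adapters with BBDuk, mapped pairs to hg38 with HISAT2 2.1.0, used SAMtools 1.8 and annotated open regions with HMMRATAC in each library, with 2 sequencing runs combined and replicates not pooled. The deposited lists give a position and a score per region, where the score is the value of the authors' caller (its kind and the version of HMMRATAC are not given in the sources used here). They precede the authors' merging and blacklist filter. Read depth is unknown, so no counting error is given.

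Between 72 and 203 regions per library lay on other contigs than chromosomes 1 to 22, X and Y and were left out. A start site was covered when a region contained it. Percentile and log2 width were tested with limma 3.58.1 in R 4.3.3 (two-sided, all 6 libraries in 1 fit, Benjamini-Hochberg over the 7880 coding genes covered in all 6). The test was also run on simulated data, and no statement here rests on that outcome. Intervals are 95%. The study's methods call the replicates biological and its results call them technical, so p-values measure only the spread between these libraries, which may be technical. Promoters came from the RefSeq table of GRCh38.p14. The 35 genes, the other gene lists, the motifs and the tests were chosen with earlier results of these data known. Values in every library are given for genes without a call in some library, for the highest and lowest mean of each of 6 role groups, and for up to 4 rises and 4 falls per comparison without overlap between groups; CDC25A, CDK2, MCM6, E2F2 and RRM2 were described for their spread, sequence or width after their values were seen. The alternatives were a percentile among start regions, equal list lengths, the upper 50% of each list, 500 bp on either side of the start, percentile 0 without a call, the replicate number as a block, only the 4 libraries of a comparison, each library left out, and the canonical start (added later). Python 3.11.15, NumPy 2.4.6, pandas 2.3.3, SciPy 1.17.1 and Matplotlib 3.10.9 were used. A marker of another cell type is not reported here.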

Additional observations from a re-analysis of the deposited data

How the results depend on the processing

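No gene of the list passed for the score percentile with either treatment in any setting run. With an equal number of regions per list, 17 coding genes passed as higher and 236 as lower with TPA, none of them among the 24 genes of the list that could be tested; the cause was not tested. For the width with TPA, leaving out single libraries gave 0 to 368 wider and 0 to 8 narrower coding genes and 0 to 2 genes of the list. The 368 and the 8 came without TPA replicate 1, as did TYMS and POLD1, where the lone TPA library is assumed to vary like the other groups, and 0 came without control replicate 1, 2 without control replicate 2 and 38 without TPA replicate 2. For the width with ZnCl2, 0 to 2 coding genes were narrower without single libraries, and 2 when only the 4 libraries of the comparison were fitted. Start sites of the list open in TPA and not in control libraries numbered 0 to 3 (RFC4, RFC3 and CDT1 without control replicate 2, GINS2 without TPA replicate 1), and the reverse 0 to 1 (PLK1 without control replicate 1). Those open in ZnCl2 and not in control libraries numbered 2 with an equal number of regions (E2F2 and GINS2), 0 within 500 bp on either side and 0 at the canonical start, and the reverse 0 to 2 (RFC3 and PLK1 without control replicate 1, E2F1 without ZnCl2 replicate 1). Of the summary values, 229 stayed within 1.5 times the reported count or, for medians, within 1 SD of the spread between libraries, and 19 moved, and 434 percentile differences of the single genes described by value stayed without a call.

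The correlation across genes between the percentile deviations of same-numbered libraries from their group means was 0.173 between control and TPA, -0.458 between control and ZnCl2 and -0.140 between TPA and ZnCl2. For log2 width it was -0.03, 0.03 and 0.02 in the same order. A shift common to all genes of a library drops out of such a correlation. The values therefore do not settle whether the numbers pair the libraries. The main fit did not use the numbers as pairs, although replicate 2 had the wider median in each condition. With the replicate number as a block, 0 percentile calls were made with either treatment, and 12 coding genes were wider with TPA in place of 10. The median difference of the list with TPA ran from -3.32 without control replicate 1 to 4.10 without control replicate 2, and with ZnCl2 from -8.02 without control replicate 1 to 3.80 without ZnCl2 replicate 2, so neither has a settled direction. With an equal number of regions the ZnCl2 median was 0.67 (0.23 over all genes). The median log2 width difference ran from -0.49 to 0.09 with TPA and from -0.05 to 0.49 with ZnCl2 when single libraries were left out. The list stood above the coding median by 9.57 points as a mean over 6 libraries, and by 8.55 to 9.85 in the 4 other settings. Read depth is unknown, so no limit from depth is given.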
